A study of Penicillium oxalicum with 6 samples.

Results

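In the fungus Penicillium oxalicum, 66 of 9834 gene IDs were among the most abundant transcripts of both strains studied and lay within a 2-fold difference between them. They were chosen by the deposited FPKM values (fragments per kilobase of gene, scaled to the mapped fragments of a library): a mean of at least 1000 in the control strain, a mean of at least 1000 in the deletion strain, and a ratio of the means between 0.5 and 2. The control group was strain Ku70, and the deletion group was strain MuPOX09752, in which the gene of the putative transcription factor POX09752 was deleted, with 3 libraries each. All libraries are labelled as mycelium kept for 24 h in medium with 2% Avicel, a microcrystalline cellulose, at 28 °C. For every library the growth conditions also list 6 days on plates, 1 g of hyphae, 100 mL of medium and shaking at 180 rpm. The series asks how the deletion alters expression of genes for cellulases and xylanases. Fungal hosts that lack Ku70, which serves the repair of broken DNA by end joining, are used to make gene replacement easier. The growth text names only the Ku70 mutant for both groups, so whether the deletion strain also lacks Ku70, how many clones it stands for, and whether the 3 libraries of a group are separate cultures was not given in the labels.

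In a growing filamentous fungus a small number of genes supplies much of the messenger RNA. Ribosomal proteins, translation elongation factors, glycolytic enzymes, histones and small secreted or cell wall proteins are typical of this class, and such transcripts are often used as an internal standard on the assumption that they do not respond to a mutation. RNA sequencing measures them relative to each other: a transcript that takes a larger part of the library leaves less for all others. The gene IDs used here were not paired with gene products, so no role is given for any single ID below, and markers of mycelium or of spores could not be examined.

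The strain labels were checked on the deleted gene. POX09752 had 1568, 1375 and 1663 counts in the control libraries and 0 in each deletion library. Depth was 13099454 to 14115694 expected counts per library, and no member had fewer than 1545 counts in any library. Deletion replicate 3 stood apart from its group: the chi-square per degree of freedom between its counts and those of the other deletion libraries was 74.0 and 79.2, against 11.5 between deletion replicates 1 and 2 and 6.81 to 10.7 between control libraries. Results that rest on it are given below with and without it.

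The 66 members together took a large and similar part of every library. Their share of the expected counts was 15.9%, 15.3% and 15.7% in the control libraries and 17.5%, 17.3% and 16.5% in the deletion libraries. Every deletion library was above every control library, with means of 15.6% ± 0.33 in the control and 17.1% ± 0.53 in the deletion strain (SD, n = 3 each). Because the members were chosen on these libraries, the difference of 1.46 percentage points is a description and was not tested. These are parts of a fixed total of reads, and in bulk RNA fewer cells of a type and less RNA per cell cannot be told apart. The member with the largest gain was POX05554. It took 1.69% ± 0.142 of the control counts and 2.77% ± 0.522 of the deletion counts (SD, n = 3), a gain of 1.09 points. The other members took 13.95% ± 0.33 in the control and 14.3% ± 1.04 in the deletion strain, and deletion replicate 3, at 13.1%, was then the lowest of all 6 libraries. The split depended on that library: over deletion replicates 1 and 2 alone the members as a whole took 1.76 points more than in the control, of which POX05554 held 0.784 and the other members 0.978, against 0.379 for the other members with all 3.

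**Figure D1:**
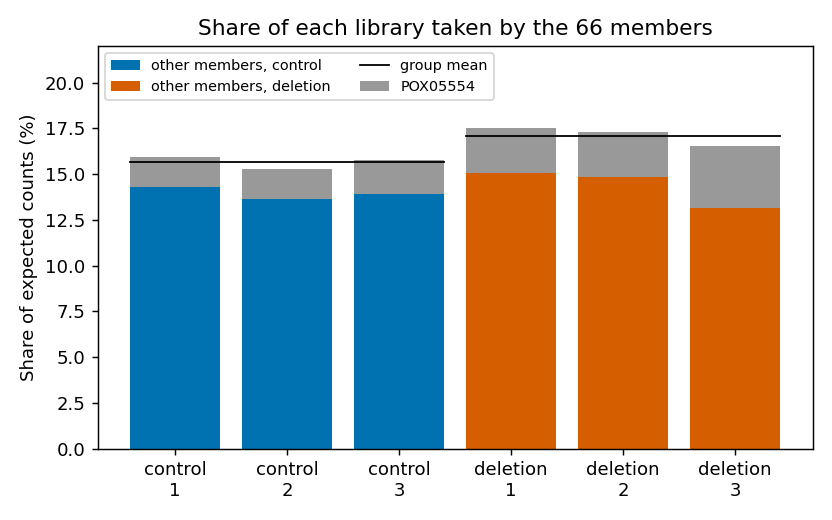
Share of the expected counts of each library (y axis, percent) taken by the 66 members, with the part of POX05554 in grey on top of the other members (blue in the control, orange in the deletion strain) and the mean of each group as a line. The whole bars run from 15.3% to 15.9% in the control and from 16.5% to 17.5% in the deletion strain, and the coloured part is lowest in deletion replicate 3.

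Within this total, 32 members gained share in the deletion strain, by 3.25 points in all, and 34 lost share, by 1.79 points in all. After POX05554 the largest gain was that of POX01317, from 1.17% ± 0.0642 to 1.72% ± 0.217 of the counts. The largest losses were those of POX07863, from 1.10% ± 0.0118 to 0.697% ± 0.309, and POX02605, from 0.693% ± 0.0169 to 0.429% ± 0.207 (SD, n = 3 each). For both of these the spread among the deletion libraries was wide, since deletion replicate 3 was far below the others. Share also depends on length. POX01317 and POX07863, with lengths of 1762 and 1809 bases implied by the ratio of count to FPKM, ranked 2 and 3 among the members by share in the control, but 10 and 12 by FPKM.

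The most abundant member per length was POX05554, which stood second among all gene IDs in each strain. Its level was 24864, 25056 and 28782 FPKM in the control libraries and 38567, 38191 and 52429.7 FPKM in the deletion libraries. All deletion values were above all control values, and deletion replicate 3 was the highest. Without that library its fitted log2 fold change was 0.53 ± 0.10 (SE), against 0.68 ± 0.21 with it. POX06307 followed with 16916, 17817 and 16091 FPKM in Ku70 and 21394, 21701 and 17158 FPKM in MuPOX09752, where replicates 1 and 2 were above the control and replicate 3 lay within its range. POX04408 had 12002, 12145 and 12287 FPKM in Ku70 and 15956, 15410.1 and 9847 FPKM in MuPOX09752, so its groups also overlapped, with deletion replicate 3 the lowest of the 6 libraries. These members held the first 3 places among the 66 in each strain. In the control, the levels of the next members, POX06308 (10438 ± 738 FPKM) and POX07862 (10329.9 ± 952 FPKM), did not differ beyond their spread (SD, n = 3). POX06308 was lower in every deletion library, at 7083, 7694 and 5970.1 FPKM.

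The remaining members of the leading 10 by the mean of both strains were POX02054, POX07582, POX01317, POX06036 and POX03083. POX07582 was at 7129 ± 742 FPKM in Ku70 and 9493 ± 791 FPKM in MuPOX09752, and POX03083 at 6516 ± 489.8 and 8106 ± 344 FPKM (SD, n = 3 each). POX01317 had 6641 ± 367 FPKM in Ku70 and 9762 ± 1232 FPKM in MuPOX09752. For each of these the deletion libraries lay above all control libraries. POX06036 had the ratio of strain means nearest to 1 among the 10, with 8465, 8215 and 8683 FPKM in Ku70 and 7755, 7214 and 8041 FPKM in MuPOX09752. Its deletion values were all slightly below the control values, and it was not called different by the test described below.

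**Figure D2:**
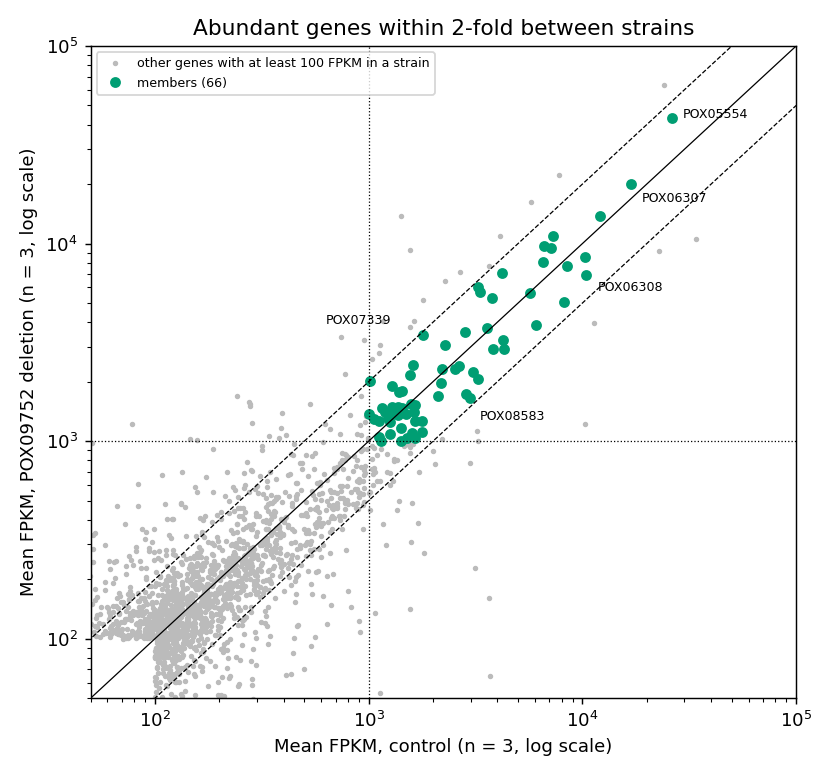
Mean FPKM in the control (x axis) against mean FPKM in the POX09752 deletion strain (y axis), both on log scales, for genes with at least 100 FPKM in a strain (genes under 50 FPKM in the other strain fall outside the frame). Members are green, dotted lines mark 1000 FPKM, the solid line marks equal levels and the dashed lines a 2-fold difference. POX05554, at 26234 and 43063 FPKM, is the highest member.

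The rank order of the members was largely kept at the top and loosened further down. Spearman's rho between the strain means was 0.83 over the 66 members, against 0.85 over the 8807 tested genes, which span a far wider range of levels. These coefficients are descriptions across genes, which are not replicates. The rule kept the strain means of each member within 2-fold, while control means ran from 1005 to 26234 FPKM. Much of the agreement in rank among the members, also at the top, thus follows from their choice. Between single libraries, rho over the members was 0.96 to 0.99 within the control, 0.99 between deletion replicates 1 and 2, and 0.78 between deletion replicate 3 and either of them. Between strains it was 0.75 to 0.84, and the 3 values with deletion replicate 3, 0.80 to 0.84, were above the 6 values without it, 0.75 to 0.80. Deletion replicate 3 thus had a higher rho with every control library than with either library of its own strain, over members whose choice used its levels. Over all 8807 tested genes the order was the reverse, with rho of 0.97 and 0.98 between deletion replicate 3 and its own strain and 0.84 between it and each control library. Of the 10 leading members in the control, 8 were among the 10 leading members of the deletion strain, and of the leading 20, 17 were shared. Of the 66, 6 members kept their rank, 26 moved by at most 5 places and 21 by more than 10, with a median of 7 places. With the rule applied without deletion replicate 3, 61 genes met it and rho between the strain means was 0.86.

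The members that climbed most were POX03389, from place 65 to place 32, POX02228, from 54 to 34, and, both by 16 places, POX07584, from 60 to 44, and POX03331, from 66 to 50. POX03389 had 1112, 908 and 1015 FPKM in Ku70 and 1996, 1984 and 2051 FPKM in MuPOX09752. Its groups were clearly apart and its deletion libraries nearly equal. The members that dropped most were POX08225, from place 37 to place 63, POX07011, from 34 to 59, and POX01708, from 35 to 56. POX08225 had 1700.1, 1722 and 1529.7 FPKM in Ku70 and 877, 945 and 1309 FPKM in MuPOX09752, with no overlap. Places are close together at this level: 34 of the 66 members lay between 1000 and 2000 FPKM in the control, so a modest change in level moves a gene by many places.

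**Figure D3:**
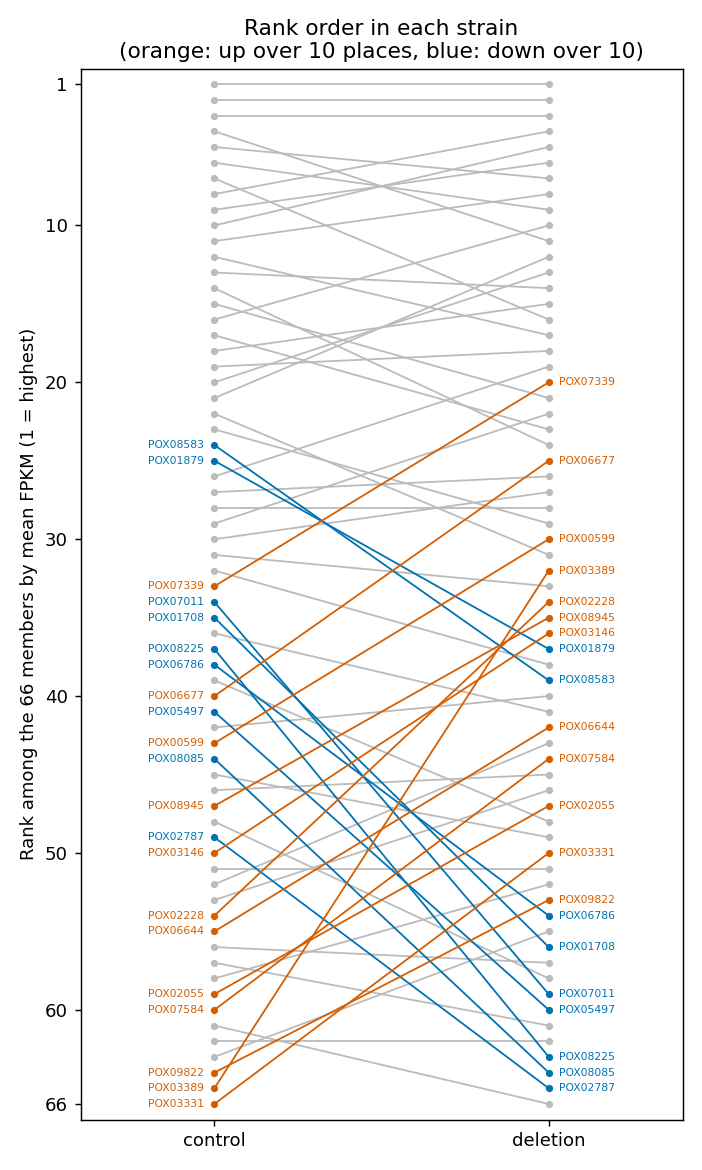
Rank of each member among the 66 by mean FPKM (y axis, 1 is the highest) in the control (left) and in the deletion strain (right), with 1 line per gene. Members that moved by more than 10 places are named and coloured (orange up, blue down). The first 3 places are the same in each strain, and every named line starts below place 20 in the control.

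The members did not shift as a block. Relative to the control, 32 had a higher and 34 a lower mean FPKM in the deletion strain, and 25 lay within 1.2-fold. The median log2 fold change from edgeR, a count model fitted to all genes, was -0.05 over the members and 0.01 over all tested genes. With the 66 members kept, the members' median was -0.11 without deletion replicate 3, -0.09 without control replicate 2, and close to 0 but positive without deletion replicate 1 or 2. Single members ran from -0.88 to 0.96. Since the ratio was limited by the choice of members, these values describe the set and support nothing about it. At an adjusted p under 0.05 (edgeR quasi-likelihood test, Benjamini-Hochberg), 15 members were called higher and 14 lower, 29 of 66 in all or 43.9%, and 37 were not called. Over all 8807 tested genes, 60.1% were called, 29.8% higher and 30.2% lower. By the plainer criterion that the FPKM ranges of the groups do not overlap, 19 members were higher after the deletion and 19 lower, against 35.5% higher and 32.2% lower among all tested genes. The counts of calls moved with single libraries, among the members and among all tested genes. Without control replicate 1, 10 members were called higher (26.3% of tested genes) and 7 lower (25.8%). The counts were 9 higher (25.5% of tested genes) and 10 lower (25.6%) without control replicate 2, and 7 higher (25.1%) and 8 lower (25.4%) without control replicate 3. They were 11 higher (27.6% of tested genes) and 9 lower (26.7%) without deletion replicate 1, and 11 higher (27.2%) and 8 lower (27%) without deletion replicate 2. Without deletion replicate 3, 25 members were called higher (33% of tested genes) and 25 lower (33.3%). Since 29 members were called, the set is described here as abundant genes within 2-fold and not as genes of stable level. Under quantile normalisation the median over the members turned positive, at 0.08, while the median of all tested genes moved to -0.06.

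Among the members called higher, 7 of 15 were called in each of 10 alternative settings and with each of the 6 libraries left out. They were POX03389, POX02072, POX02073, POX03232, POX06677, POX02228 and POX00599. Calls kept in all settings were not counted over all tested genes. This count, and the matching one for members called lower, therefore has no background share and is a description. POX02072 had 3287, 2931 and 3538 FPKM in Ku70 and 6230.4, 5627 and 6142 FPKM in MuPOX09752, a log2 fold change of 0.85 ± 0.14 (SE). POX02073, the next ID, had 3290.2, 3483 and 3212 and 6655, 6315 and 4124 FPKM. POX03232 stood at 4522, 3562 and 4522 FPKM in Ku70 and 6661, 7115 and 7572 FPKM in MuPOX09752. In all of these the groups were apart in every library, although deletion replicate 3 of POX02073 was clearly below its partners. The differences of POX06677, POX02228 and POX00599 were smaller, at log2 fold changes of 0.55 ± 0.12, 0.52 ± 0.09 and 0.44 ± 0.09 (SE). POX03389 had the largest fitted value of all members, 0.96 ± 0.11 (SE). Of the leading 10, POX05554 (0.68 ± 0.21), POX01317 (0.52 ± 0.18), POX07582 (0.38 ± 0.12) and POX03083 (0.28 ± 0.10) were also called higher, but each lost the call with some library left out.

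Among the members called lower, 5 of 14 kept the call in all of those settings: POX06308, POX00448, POX01879, POX08225 and POX00665. POX00448 had 3327, 3214 and 3197 FPKM in Ku70 and 1991, 1802 and 2377 FPKM in MuPOX09752, with a log2 fold change of -0.69 ± 0.15 (SE). POX01879 stood at 3049, 2679 and 2874 FPKM and 1488, 1481 and 2257 FPKM (-0.75 ± 0.19). POX00665 showed the smallest of these differences, 4244 ± 169 FPKM in Ku70 and 3254 ± 242 FPKM in MuPOX09752 (SD, n = 3; -0.41 ± 0.10). The groups of all 5 were apart, and in POX00448, POX01879 and POX08225 deletion replicate 3 was the library nearest to the control. POX08583 had the lowest fitted value of the members, -0.88 ± 0.33 (SE), with 2606, 3007 and 3348 FPKM in Ku70 and 928, 1410.2 and 2630.5 FPKM in MuPOX09752. Here the highest deletion library lay within the control range, and the call was kept in 5 of the 10 settings and with 1 of the 6 libraries left out. For POX02605 and POX07011, the remaining members with the lowest values, log2 fold changes were -0.72 ± 0.36 and -0.72 ± 0.24 (SE). POX02605 was not called with all libraries, but was called lower without deletion replicate 3, at -0.36 ± 0.08 (SE). POX07011 was called, and kept the call in all 10 settings but with only 1 of the 6 libraries left out.

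**Figure D4:**
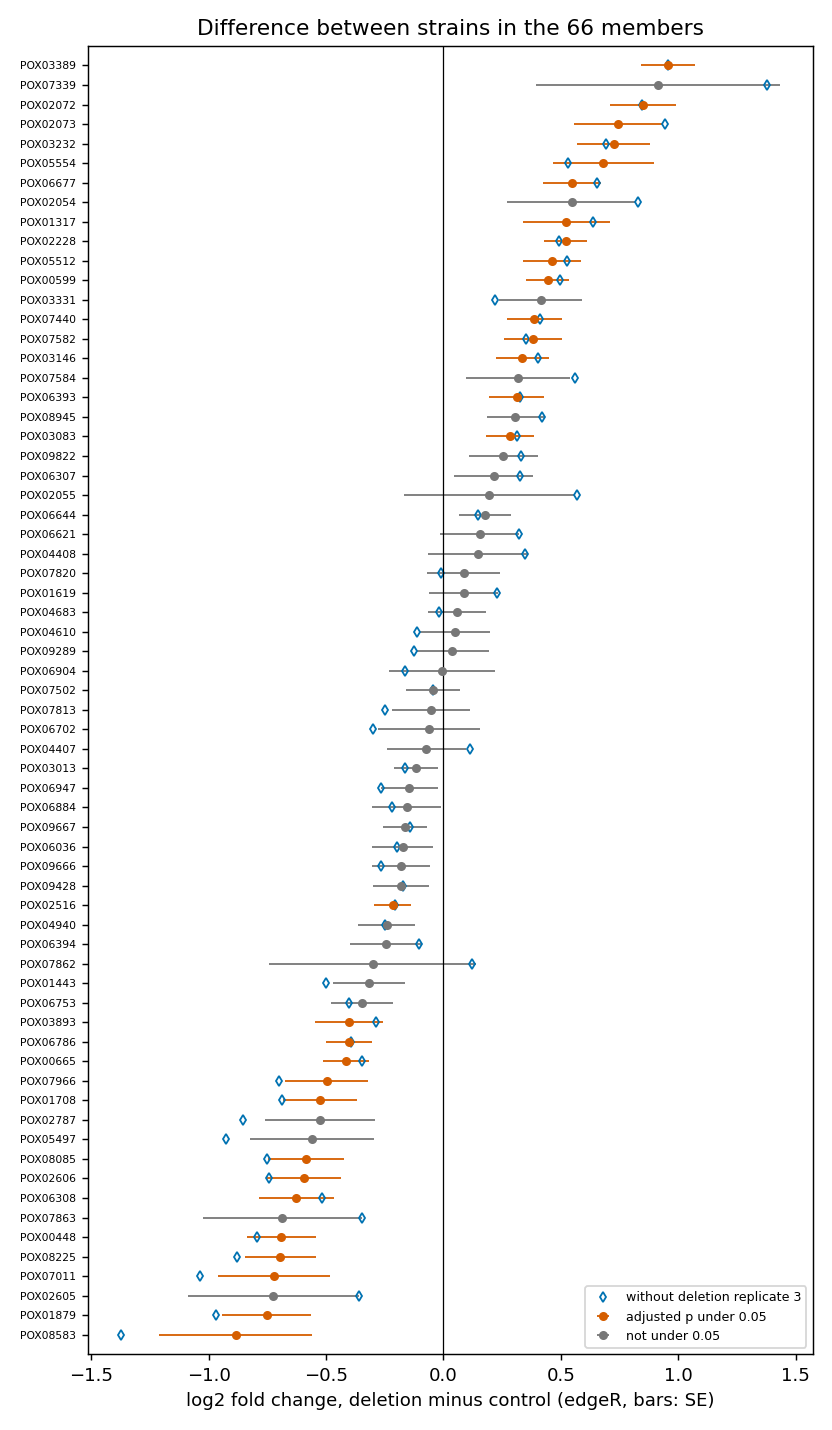
Fitted log2 fold change, deletion minus control, of each of the 66 members (x axis, bars are SE), sorted from the highest to the lowest, with members at an adjusted p under 0.05 in orange. Open diamonds give the same value without deletion replicate 3. Values run from -0.88 (POX08583) to 0.96 (POX03389), and the diamonds of POX07339 and POX07862 lie far from their filled points.

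A few members hardly differed. Chosen after the values were seen, POX07502 had 1273, 1183 and 1315 FPKM in Ku70 and 1217, 1256 and 1269.6 FPKM in MuPOX09752, and POX09667 had 2583, 2537 and 2498 and 2309, 2355 and 2289 FPKM. The coefficient of variation among the deletion libraries was 2.19% for the first and 1.46% for the second. POX09667 was nevertheless slightly lower in every deletion library, by a log2 fold change of -0.16 ± 0.09 (SE). The range of POX07502 in the deletion strain lay wholly within that of the control.

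The mean levels hid a wide spread within the deletion strain. The choice of members used means that include deletion replicate 3, so some genes of wide spread are members only through that library. Counts of such spread among the members therefore follow in part from the choice and are descriptions. The median coefficient of variation over the members was 13.8% among the deletion libraries and 6.46% among the control libraries, against 10.9% and 7.04% over all tested genes, and it was larger in the deletion strain for 48 of the 66 members. This was not particular to the members. The medians were 16.9% and 4.53% for the 59 genes that reached 1000 FPKM in the control alone. They were 12.4% and 4.49% for the 33 that did so in the deletion strain alone. The highest deletion library was more than 2-fold above the lowest for 9 of the 66 members, against 7.54% of all tested genes. In the control 0 members had such a range, and the largest ratio was 1.63. Deletion replicate 3 was at least 1.5-fold below the mean of the other deletion libraries for 10 members and at least 1.5-fold above it for 6. Among all tested genes these shares were 5.87% and 6.68%. Such genes numbered 9 and 14 among the 59 abundant in the control alone, and 5 and 4 among the 33 abundant in the deletion strain alone. By order alone, deletion replicate 3 was the lowest of its group for 25 members and the highest for 34, against 40.3% and 41% of all tested genes. The labels give no day, batch or RNA quality for that library, and the part of these in its values was not tested.

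Apart from POX02605 and POX07863, the 10 members that were low in deletion replicate 3 were above the control mean in the other deletion libraries. POX07339 had 1927, 1811 and 1656 FPKM in Ku70 and 4610.1, 4872 and 896 FPKM in MuPOX09752. Deletion replicates 1 and 2 were well above all control libraries and replicate 3 was below them all. Without replicate 3 its ratio would have exceeded 2, so its place among the members rested on that library. POX07862 had 9558, 11394 and 10038 FPKM in Ku70 and 11799, 10970.3 and 2870.3 FPKM in MuPOX09752, so that only deletion replicate 3 left the control range by a wide margin. POX02054 showed 13559, 12713 and 6379 FPKM in the deletion libraries against 8216, 6855 and 6780.0 in the control, and POX02055 showed 1841, 1753 and 603 against 1155, 1347 and 1092. POX02605, with 6529, 6425 and 2242 FPKM against 8383, 8201 and 7986 in the control, and POX07863, with 5035, 4621 and 1897 against 6126, 6066 and 5996, were below the control in every deletion library and lowest in replicate 3. POX07584, POX04408, POX04407 and POX02073 complete the 10.

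The 6 members that were high in deletion replicate 3 formed the opposite picture: their deletion replicates 1 and 2 were below the control, and replicate 3 was nearer to the control level or above it. They were POX08583, POX05497, POX02787, POX07011, POX06702 and POX01879. The choice of members used the deletion mean with replicate 3 in it. POX05497, POX02787 and POX07011 reached a mean of 1000 FPKM only with that library, and POX08583 kept a ratio above 0.5 only with it. For these genes the picture follows from the rule and supports nothing. POX05497 had 1555, 1636 and 1572 FPKM in Ku70 and 675, 1019 and 1614 FPKM in MuPOX09752. POX02787 had 1432, 1304 and 1499 and 717, 869 and 1426 FPKM, and POX07011 had 1833, 1746 and 1777 and 732, 1035 and 1560.3 FPKM. In POX05497 and POX02787 deletion replicate 3 lay within the control range. POX06702 was the exception among the 6, at 5926, 5178 and 6010.4 FPKM in Ku70 and 4805, 4596 and 7397 FPKM in MuPOX09752, where replicate 3 exceeded all control libraries.

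**Figure D5:**
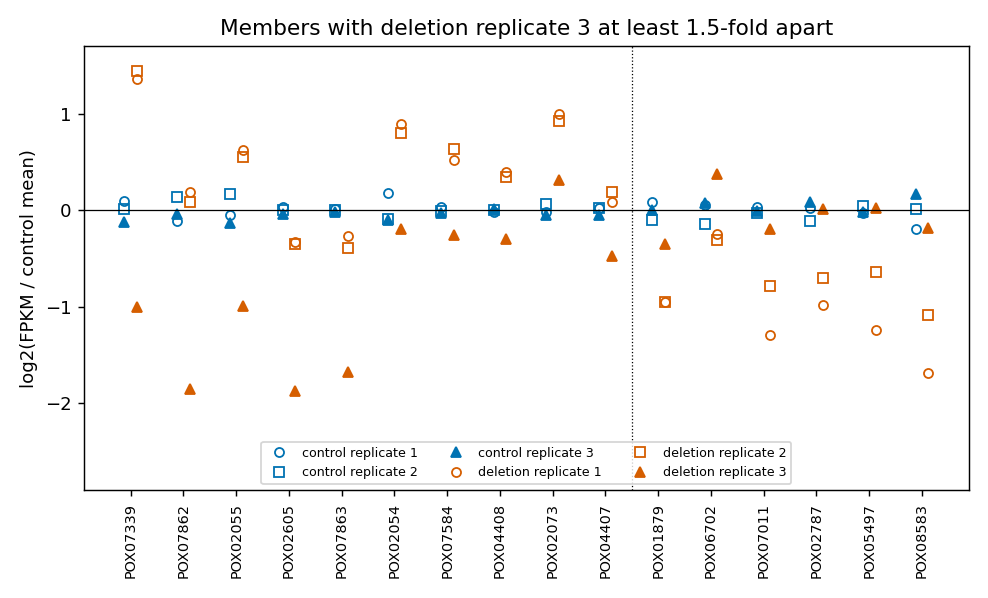
Level of each library relative to the control mean (y axis, log2 of the FPKM ratio) for the 10 members with deletion replicate 3 at least 1.5-fold below the mean of the other deletion libraries (left of the dotted line) and the 6 members at least 1.5-fold above it (right). Control libraries are blue, deletion libraries orange, and replicate 3 of each group is a filled triangle. The control libraries stay close to 0 for every gene shown, and the orange triangles lie apart from the other orange symbols.

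Leaving out deletion replicate 3 changed how many members passed the test. With the 66 members kept as chosen, 50 were then called, 25 higher and 25 lower, against 66.4% of 8770 tested genes. All 29 members called with 6 libraries were among these 50, and 21 were added. The fitted log2 fold change of POX07339 went from 0.91 ± 0.52 to 1.38 ± 0.09, that of POX02055 from 0.20 ± 0.36 to 0.57 ± 0.09, that of POX08583 from -0.88 ± 0.33 to -1.37 ± 0.16 and that of POX07862 from -0.30 ± 0.44 to 0.12 ± 0.09 (SE). In all, 6 members changed sign, and none of these 6 was called without that library.

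Of the 66 members, 16 formed 8 pairs of consecutive ID numbers. The files do not give gene positions, so whether such IDs lie side by side in the genome was not examined. In 5 of the 8 pairs the fitted log2 fold changes of both members had the same sign. With all 6 libraries fitted, POX02072 and POX02073 were the only pair of these with both members called. Without deletion replicate 3, where 66.4% of tested genes were called, POX02054 and POX02055 were also both called higher. POX02605 and POX02606 were then both called lower. In 4 of the 8 pairs both members were lower in deletion replicate 3 than the mean of the other deletion libraries. Neither count was made over all consecutive IDs of the series, so both are descriptions. POX02072 and POX02073 were higher in the deletion strain, at log2 fold changes of 0.85 ± 0.14 and 0.75 ± 0.19 (SE). POX07862 and POX07863 were both low in deletion replicate 3, at 0.252 and 0.393 of the mean of the other deletion libraries. The next IDs, POX07864 and POX07865, which are not members and were looked at because of this, had 695, 629.5 and 168 and 649, 513 and 183 FPKM in the deletion libraries against 1296, 1441 and 1439 and 1410.4, 1325 and 1314 in the control, at ratios of 0.254 and 0.315 for replicate 3. POX02054 and POX02055 were also both low in that library, at ratios of 0.486 and 0.335, while their outer neighbours POX02053 and POX02056 were at most 7.82 FPKM in any library. POX06307 and POX06308 were at 0.796 and 0.808 in that library, with POX06306 at 0.759 and POX06309 at 0.621 on either side. POX04407 and POX04408 were at 0.659 and 0.628, with POX04406 at 0.514 and POX04409 at 0.843. Beside the other pairs, the outer neighbours went both ways in that library. POX02071 and POX02074 were at 1.13 and 0.963, and POX02604 and POX02607 at 0.734 and 1.41. POX06395 was at 2.78, POX09665 at 1.17 and POX09668 at 0.943, and POX06392 had at most 2.64 FPKM in any library.

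The fitted difference between strains could differ within a pair. POX06307, the second member by level, had a log2 fold change of 0.21 ± 0.17, and POX06308 had -0.63 ± 0.16 (SE). With all libraries only POX06308 was called. Without deletion replicate 3, POX06307 was called higher, at 0.33 ± 0.09 (SE), and POX06308 was still called lower. POX06393 rose from 2818 ± 278 to 3582 ± 70.4 FPKM, while POX06394 was at 1622 ± 222 FPKM in Ku70 and 1398 ± 240.3 FPKM in MuPOX09752 (SD, n = 3 each), a difference that was not called. In POX02605 and POX02606 both fitted values were negative, but deletion replicate 3 was the lowest deletion library for the first and the highest for the second. POX04407 and POX04408 had log2 fold changes of -0.07 ± 0.17 and 0.15 ± 0.21 (SE), neither of them called with all libraries. Without deletion replicate 3, POX04408 was called higher, at 0.35 ± 0.08 (SE), and POX04407 was not called. POX09666 stood at 2645 ± 167 FPKM in Ku70 and 2388 ± 292 FPKM in MuPOX09752, close to POX09667 at 2539.5 ± 42.4 and 2318 ± 33.7 FPKM (SD, n = 3 each).

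The members were short. Their implied length had a median of 559 bases, from 124 to 1809, against a median of 1218 bases over the tested genes, and 56 of the 66 were shorter than that median. FPKM is divided by length, so at an equal count a short gene has a higher FPKM, and this part of the difference follows from the unit. Other abundant genes were short too. The median was 640 bases for the 59 genes that reached 1000 FPKM in the control alone and 603 for the 33 in the deletion strain alone. It was 589 bases for the 68 genes within 2-fold at 500 to 1000 FPKM in both strains. A fractional count, which marks reads divided between similar genes, occurred in at least 1 library for 6 members, or 9.09%, against 11.2% of all IDs. POX02605, POX02054, POX03893, POX02073, POX06786 and POX01443 are these 6. How many of their reads were divided, and so how far their levels are less certain, was not examined. In all, 4 members lay among the highest-numbered 5% of IDs.

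Direction did not follow length or level in a simple way. The median log2 fold change was -0.14 in the 22 shortest members, 0.07 in the 22 of middle length and -0.05 in the 22 longest, with 12, 10 and 7 members called. Over all tested genes of any length 60.1% were called, and their calls were not counted by length. Without deletion replicate 3 the medians of these length bands were -0.12, 0.22 and -0.11. By control level it was -0.02 in the 34 members between 1000 and 2000 FPKM, -0.18 in the 19 between 2000 and 5000 FPKM, and 0.15 in the 13 above 5000 FPKM. Without deletion replicate 3 these were -0.03, -0.17 and 0.31. In the last group 9 of 13 members were lower in deletion replicate 3 than the mean of its partners. The share of the counts of these 13 went from 8.89% ± 0.14 in the control to 10.02% ± 0.60 in the deletion strain. Most of this was POX05554: the other 12 took 7.20% ± 0.10 and 7.25% ± 1.12, and 7.89% over deletion replicates 1 and 2 alone. The share of the 34 lowest went from 3.40% ± 0.12 to 3.60% ± 0.04 (SD, n = 3 each).

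The control libraries differed little among themselves. The widest spread among them was that of POX06904, with 1638, 1013 and 1652 FPKM, followed by POX07820, with 1487, 1123 and 1303 FPKM, and POX06394, with 1596, 1856 and 1415 FPKM. Control replicate 2 was the lowest for the first pair and the highest for POX06394. The fitted log2 fold changes of POX06904 and POX07820, -0.01 ± 0.22 and 0.09 ± 0.16 (SE), were too small to carry a direction, and that of POX06904 changed sign with the scaling.

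Genes just inside and just outside the limits of the rule had nearly the same levels. At the control limit, POX03331 and POX03389 were just inside at 1005 and 1012 FPKM, and POX00607 and POX05809 just outside, both at 993 FPKM. At the deletion limit, POX02516 and POX02787 were just inside at 1002 and 1004 FPKM, and POX08314 and POX08502 just outside at 991 and 973 FPKM. The ratios nearest to 2 were 1.99 (POX03389) and 1.92 (POX07339) inside and 2.099 (POX06820) and 2.45 (POX00715) outside. At the lower limit they were 0.554 (POX08583) and 0.608 (POX01879) inside and 0.464 (POX03022) and 0.402 (POX08906) outside. POX00715 had 4824, 5012 and 1562 FPKM in the deletion libraries, so its ratio also rested on replicate 3.

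Set against the other abundant genes, the members were the larger part of what the strains had in common. In all, 148 genes reached 1000 FPKM in the control and 122 in the deletion strain, 89 of them in both, and 66 of the 89 were members. Of the 23 others, 16 were more than 2-fold higher in the deletion strain and 7 more than 2-fold lower. Those 16 took 3.50% ± 0.16 of the control counts and 10.5% ± 0.52 of the deletion counts, and the 7 took 3.21% ± 0.19 and 0.984% ± 0.07 (SD, n = 3 each). The 59 genes that reached 1000 FPKM in the control alone took 10.3% ± 0.15 and 2.31% ± 0.05. These sets were divided by the same levels, so their differences follow from the rule and were not tested. All 181 genes that reached the limit in either strain together took 34.3% ± 0.31 of the control counts and 35.0% ± 1.13 of the deletion counts.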

How the data were processed

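The 6 libraries, 3 of each strain, were grouped by the strain in the labels. For each gene ID the tables give, per the file headers, 1 expected count beside 1 FPKM value. The expected counts are estimates deposited by the authors without normalization, and the deposited FPKM values are by definition scaled to gene length and mapped fragments. RSEM 1.2.12, Bowtie2 2.1.0, BWA 0.7.10-r789 and DESeq2 are listed in the submitters' processing notes with no statement of what each did. Genome build, annotation and strandedness: not given in the sources used here.

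Expected counts were rounded and fitted over all 6 libraries with edgeR 4.0.16 (R 4.3.3): the genes averaging 1 FPKM or more over the libraries (8807, all 66 members included), TMM factors of 0.973 to 1.016, the quasi-likelihood test, and Benjamini-Hochberg adjustment over all tested genes, with a threshold of 0.05. The SE of a log2 fold change is its size divided by the root of its F statistic. P-values weigh the difference between strains against the spread among the libraries of a strain, which may be technical. Implied length is the count divided by FPKM and by the library's listed total, and is correct only up to a constant. The fit was tested on simulated data. Alternatives used limma 3.58.1 and DESeq2 1.42.0. The members and lists were chosen with earlier results of these data known. Named genes are the 10 highest members, the 5 largest and 5 smallest log2 fold changes, the 3 most variable members of each strain, the 3 largest climbs and drops in rank (with 1 tie), the 2 genes on each side of every limit, consecutive IDs and POX09752, and members whose call held in all settings or whose deletion replicate 3 lay apart were named after the values were seen. The reference gene table used holds locus tags that are not the IDs of the files, so product lists were replaced by bands of level and length.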

Additional observations from a re-analysis of the deposited data

How the results depend on the processing

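The count of members depended most on the level required: 173 genes met the rule at 500 FPKM and 28 at 2000 FPKM. The members' share of the counts in the control and in the deletion strain was then 22.2% and 23.1% at 500 FPKM, 11.6% and 12.99% at 2000 FPKM, 9.76% and 10.7% with ratios within 1.5-fold, 14.8% and 16.2% with FPKM rescaled to TPM (55 members), and 14.2% and 14.7% without POX05554 in members and total. The share was higher in the deletion strain under each of these. With a library left out and the rule reapplied, members numbered 61 to 72, their share was 15.5% to 16.2% in the control and 16.9% to 17.5% in the deletion strain, and the Spearman rank correlation of their strain means was 0.79 to 0.86. That correlation was 0.79 at 500 FPKM and 0.88 with TPM. The median log2 fold change of members, -0.05, was -0.17 at 500 FPKM, 0.043 at 2000 FPKM, 0.038 with TPM, -0.013 with total counts in edgeR, -0.0087 with a mean of at least 5 FPKM, 0.082 with quantile normalisation in limma, and -0.076 to -0.0084 with a library left out and the rule reapplied. With the 66 members kept, as chosen after seeing the data, it was -0.010, -0.091 and -0.016 without control replicates 1, 2 and 3, and 0.0049, 0.0012 and -0.11 without deletion replicates 1, 2 and 3, so its sign depended on these choices. Members called higher and lower numbered 27 and 59 at 500 FPKM, 10 and 6 at 2000 FPKM, and 10 and 8 with ratios within 1.5-fold (52 members). In the same fit, 29.8% of all tested genes were called higher and 30.2% lower. The sets hold different numbers of genes, and the cause of the change in balance was not tested. With a library left out they numbered 7 to 25 and 7 to 19 with the rule reapplied, and 7 to 25 and 7 to 25 with the 66 members kept, an alternative chosen after seeing the data (9 higher without control replicate 2, 9 lower without deletion replicate 1, 8 lower without control replicate 3 or deletion replicate 2). The lowest counts higher came without control replicate 3 and the lowest counts lower without control replicate 1. Other tools and scalings gave 11 to 18 higher and 10 to 17 lower. All tested genes called numbered 4459 to 5819 over the alternatives. Whether the replicate numbers pair the samples was not settled. Deviations of same-numbered libraries correlated at -0.02, 0.16 and 0.07. Control replicates 2 and 3 correlated best with the deletion library of the same number, and control replicate 1 with deletion replicate 3 (0.06). Values this small from so few libraries cannot decide it. With the replicate block 11 members were called higher and 15 lower. Of 576 values for 36 named members under an alternative, 477 kept direction and side of the threshold, 58 lost the call, 20 gained it and 21 changed sign, none of them called in both fits. Sign changes were those of POX06904, from -0.0061 to 0.033 (total counts, and at least 5 FPKM), 0.0078 (RLE scaling, and DESeq2), 0.017 (replicate block), 0.049 (limma with pseudocounts 1 and 0.1), 0.048 (pseudocount 5) and 0.20 (quantile), and under quantile normalisation those of POX04408 (-0.045), POX02516 (0.080) and POX04407 (0.0085). With a library left out, values ran from -0.22 to 0.12 for POX06904, from -0.60 to 0.12 for POX07862, from -0.024 to 0.21 for POX07820, from -0.047 to 0.57 for POX02055 and from -0.20 to 0.11 for POX04407. Each member had at least 1545 counts in every library.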
